A study of Mus musculus with 8 samples.

Results

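The genes described here are 10 enzymes of de novo nucleotide synthesis, taken by symbol from the 53242 genes of the count and TPM tables. Cad, Dhodh, Umps and Ctps serve pyrimidine synthesis, and Ppat, Gart, Pfas, Paics, Atic and Impdh2 serve purine synthesis. All 10 were found and all 10 passed the filter on low counts, as did 14218 genes in total. Their mRNA was measured by RNA-seq in splenic B cells of C57BL/6 mice aged 8 to 12 weeks. Culture lasted 24 h, with 40 ng/ml IL4 and irradiated CD40LB cells, a fibroblast feeder line that expresses CD40 ligand and human BAFF, and the feeders were then removed with an antibody to H-2Kd. The 4A1 KO mice were Eif4a1 fl/fl CD23-cre and the controls Eif4a1 +/+ CD23-cre, so both groups carried the Cre. CD23-cre acts in B cells from an immature splenic stage onwards, and the loxP sites flank exons 2 to 4 of Eif4a1, which encodes an RNA helicase of translation initiation. Each genotype had 4 libraries from separate mice. In both genotypes replicate 1 was a male and replicate 2 a female of batch A, and replicate 3 was a male and replicate 4 a female of batch B. Replicate 1 of both genotypes, whose cells were less viable after isolation, was left out of the main comparison. It therefore holds 3 libraries per genotype.

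De novo synthesis builds nucleotides from amino acids, bicarbonate, one-carbon units and phosphoribosyl pyrophosphate (PRPP), whereas salvage recycles bases and nucleosides. The pyrimidine ring is closed first and then joined to PRPP to give UMP, from which UTP and CTP are made, whereas the purine ring is assembled stepwise on PRPP to give IMP, which branches to AMP and GMP. Lymphocytes raise both pathways when they are activated, and inhibitors of Dhodh and of IMP dehydrogenase are used to restrain lymphocytes. Several of these genes are known targets of MYC, which binds the E-box.

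Start sites and 300 bases around them were available from RefSeq for 8 of the 10 genes, with 250 bases before and 50 after the start. Ctps had start sites at 120427473 and 120426656 of chromosome 4, so there were 9 promoters. The motifs searched were the E-box CACGTG, the cyclic AMP response element TGACGTCA and the NRF1 motif, which is the part in capitals in the Ctps sequence, chosen after the promoters had been seen. Each reads the same on both strands, and no motif contains another. The E-box was found in 3 of the 8 genes and in 7.15% of all 32851 promoters (10.3% of those of tested genes). The response element was found in 1 gene and in 1.79% of all promoters (3.07% of those of tested genes), and the NRF1 motif in 1 gene and in 0.971% (2.15%). In Ctps the NRF1 motif was found only at the first start site named above. The shares are of promoters, whereas the counts are of genes. The 5 sites are shown because they set the gene that changed most, Umps, and the gene that was higher in all 4 pairs, Ctps, beside 3 purine genes, and the capitals mark the motif. The sequences run 5′ to 3′ on the gene's strand and were placed on GRCm39 by an exact match.
Umps (chr16:33787388-33787415, minus strand, motif from base 4 after the start): gacttctgggTGACGTCAcgggccccaa
Ctps (chr4:120427519-120427548, minus strand, motif from 65 bases before the start): gagacgtcccGCGCATGCGCgccctagccc
Paics (chr5:77098936-77098961, plus strand, motif from 203 bases before the start): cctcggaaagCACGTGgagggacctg
Atic (chr1:71596298-71596323, plus strand, motif from 7 bases before the start): acctcggggtCACGTGgggtcgacac
Impdh2 (chr9:108437515-108437540, plus strand, motif from 110 bases before the start): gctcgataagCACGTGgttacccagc
The match is of letters alone. Binding was not measured.

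The 6 libraries held 38488341 to 43210858 counted reads each, and 4A1 KO replicate 1 held the fewest of all 8, 31727557. Eif4a1 was at 974, 933, 1142 and 1136 TPM in control replicates 1 to 4 and at 712, 700, 827 and 843 TPM in 4A1 KO, so the genotypes did not overlap. These values cover the whole gene, including the exons that Cre does not remove. All 8 B cell markers were detected, with summed levels of 5238 to 6049 TPM in control and 5487 to 5571 TPM in 4A1 KO, and 5 of them were lower and 1 higher at an adjusted p under 0.05. The higher one, Fcer2a, which encodes CD23, held 2771 to 3439 TPM in control and 3561 to 3795 TPM in 4A1 KO, and the other 7 summed to 2396 to 2613 TPM in control and 1738 to 1949 TPM in 4A1 KO, lower without overlap. The 10 fibroblast markers summed to 18.6 to 40.1 TPM in control and 12.2 to 28.8 TPM in 4A1 KO, with 3 lower and 1 higher, and the feeder marker Postn was at 0 in every library. Thy1 alone held 5.75 to 36.4 TPM in control and 5.16 to 23.2 TPM in 4A1 KO, and the other 9 markers summed to 3.70 to 16.0 TPM and 5.55 to 10.1 TPM, higher in 4A1 KO in all pairs but pair 2. The 6 T cell markers summed to 1.03 to 2.65 TPM and 0.779 to 1.57 TPM, with 1 gene expressed enough to be tested, which did not pass, and Cd3g at 0. The 6 myeloid markers summed to 2.71 to 5.32 TPM and 4.02 to 6.22 TPM, with 1 higher, and Mpo and S100a8 at 0. The 4 plasma cell markers summed to 215 to 330 TPM and 196 to 261 TPM, with 2 lower. Irf4 alone made up most of each sum, with 179 to 304 TPM in control and 181 to 234 TPM in 4A1 KO. Jchain held 13.3 to 29.3 TPM in control and 10.7 to 34.8 TPM in 4A1 KO. Sdc1 held 5.02 to 8.49 and 1.95 to 4.14 TPM, and Prdm1 1.52 to 3.87 and 1.32 to 2.88 TPM. The part of these differences in the results that follow was not tested. In these bulk samples fewer cells of a type and less RNA per cell cannot be told apart.

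Of the 10 enzymes, 8 fell in 4A1 KO B cells at an adjusted p under 0.05 and none rose. Of all genes tested, 26.7% fell and 26.3% rose by the same rule. The fallers were all 6 purine genes and 2 of the 4 pyrimidine genes, Umps and Dhodh. Only Umps also passed a fold threshold, a log2 fold change beyond 0.5, which 13.7% of genes passed on the lower side (11.6% on the higher). The median log2 fold change was -0.28 over the 10 genes, -0.29 over the purine genes and -0.18 over the pyrimidine genes, against 0.01 over all genes tested. CPM are the counts scaled to library size with the TMM factor of each library. In CPM, 9 of the 10 genes were lower in 4A1 KO in all 4 same-numbered pairs of libraries. Of all genes, 33.5% were lower in all 4. Ctps was higher in all 4, and the share of all genes that were higher in all 4 was not computed. In TPM pair 2 of Dhodh went the other way. The median over the 10 genes was -0.22, -0.21, -0.33 and -0.24 in pairs 1 to 4. The fit pairs the libraries through batch and sex. Without that replicate block 3 of the 10 passed (Umps, Paics and Atic), against 18.6% of all genes that fell. In the test against a log2 fold change of 0.5 itself, only Umps passed (6.94% of all genes fell).

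**Figure D1:**
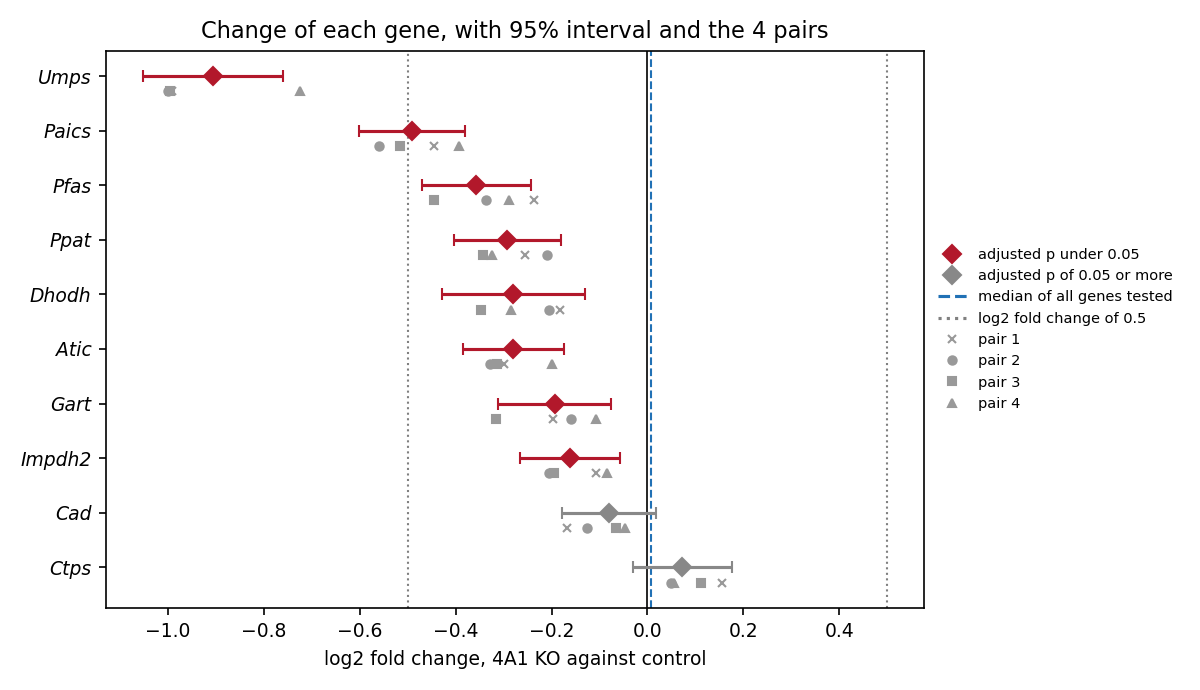
The horizontal axis is the log2 fold change of 4A1 KO against control and each row is 1 gene. Diamonds and bars are the estimate and its 95% interval from replicates 2 to 4 (red where the adjusted p is under 0.05), the small grey symbols are the differences in the 4 same-numbered pairs, the dashed line is the median of all genes tested (0.01) and the dotted lines mark the fold threshold. Umps at -0.91 stands left of the other genes, and only Ctps has all pairs on the right of 0.

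Umps (ENSMUSG00000022814, chromosome 16, 33774077 to 33787429, minus strand) encodes the bifunctional enzyme that joins orotate to PRPP and releases UMP. Its level was 75.0, 85.8, 102 and 107 TPM in control replicates 1 to 4 and 37.0, 43.4, 51.7 and 64.2 TPM in 4A1 KO. The groups did not overlap, and the highest 4A1 KO library was below the lowest control. The mean was 98.3 ± 10.98 TPM in control and 53.1 ± 10.5 TPM in 4A1 KO (SD, n = 3). The counts fell by 46.6%, a log2 fold change of -0.91 (SE 0.064, 95% interval -1.05 to -0.76, adjusted p = 1.71e-05). Of the genes tested, 6.56% had a lower log2 fold change. The exact permutation test over all 8 libraries gave p = 0.0286, the smallest it can give, for a pattern that 19.6% of all genes showed in CPM.

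Dhodh (ENSMUSG00000031730, chromosome 8, 110317492 to 110335347, minus strand) encodes the mitochondrial enzyme that oxidises dihydroorotate to orotate, just ahead of Umps. It had the lowest level of the 10 genes, with 35.6, 28.3, 43.1 and 42.6 TPM in control and 29.8, 30.9, 31.1 and 28.3 TPM in 4A1 KO. The groups overlapped because control replicate 2 was as low as the 4A1 KO libraries. In the counts Dhodh fell by 17.6% (log2 fold change -0.28, SE 0.066, adjusted p = 0.00644). On the log2(TPM + 1) scale the difference was -0.30 with an adjusted p of 0.110 by limma. Without replicate 2 that difference was -0.52 (adjusted p = 0.00819), and without replicate 3 the call in the counts was lost (-0.24, adjusted p = 0.0622).

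Cad (ENSMUSG00000013629, chromosome 5, 31212111 to 31236418, plus strand) encodes the large multifunctional protein that carries out the opening steps up to dihydroorotate. Its level was 174, 189, 200 and 211 TPM in control and 152, 173, 190 and 201 TPM in 4A1 KO, and the groups overlapped widely. The log2 fold change was -0.08 (SE 0.043, 95% interval -0.18 to 0.02, adjusted p = 0.147). With replicate 1 included it was -0.10 and passed (adjusted p = 0.0446, with 28.7% of all genes lower in that fit).

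Ctps (ENSMUSG00000028633, named Ctps1 in GENCODE, chromosome 4, 120395395 to 120471131, minus strand) encodes CTP synthase, which aminates UTP to CTP and whose human counterpart is needed for lymphocyte expansion. Its level was 110.5, 113, 131 and 143 TPM in control and 121, 116, 142 and 146 TPM in 4A1 KO. Each 4A1 KO library was slightly above the control of its own number, while the groups as a whole overlapped. The log2 fold change was 0.07 (SE 0.046, 95% interval -0.03 to 0.18, adjusted p = 0.213), so that a rise of more than 0.18 lies outside the interval.

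**Figure D2:**
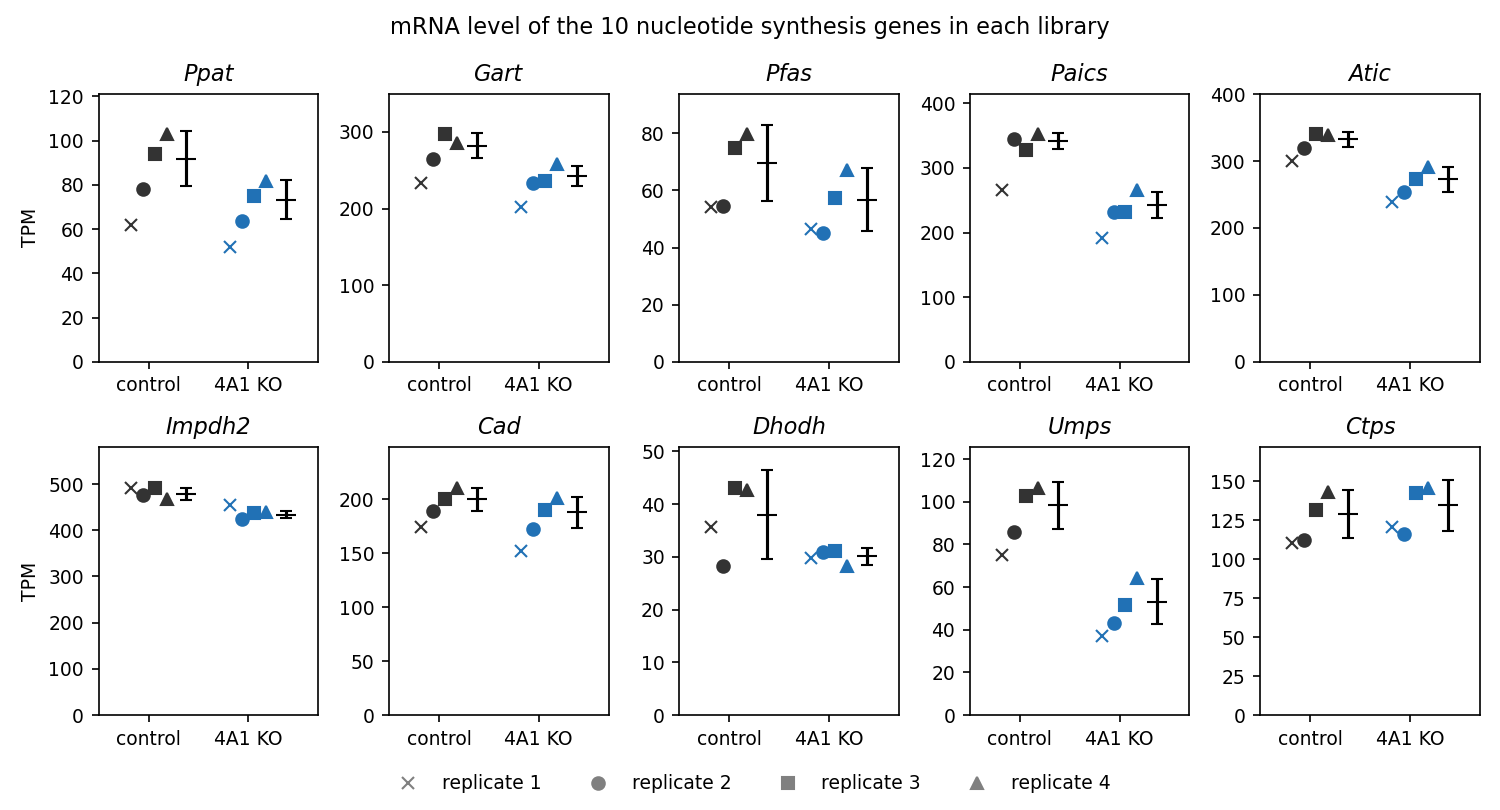
Each panel shows 1 gene, with TPM from 0 on the vertical axis and 1 symbol per library, black for control and blue for 4A1 KO, and the symbol shape gives the replicate number. The horizontal tick and bar beside each group are the mean and SD of replicates 2 to 4 (n = 3). Umps shows the widest relative gap, Paics and Atic separate without overlap, and Cad and Ctps overlap.

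Among the purine genes Paics fell most. Paics (ENSMUSG00000029247, chromosome 5, 77099139 to 77116370, plus strand) encodes the bifunctional enzyme that adds the carboxyl group and then the aspartate to the growing ring. Its level was 266.3, 344, 328 and 352 TPM in control and 192, 232, 231 and 265.2 TPM in 4A1 KO. The groups did not overlap, but 4A1 KO replicate 4 lay just under control replicate 1. The counts fell by 28.8% (log2 fold change -0.49, SE 0.049, 95% interval -0.60 to -0.38, adjusted p = 6.24e-05), just short of the fold threshold. Without replicate 4 it was -0.54 and passed.

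Pfas (ENSMUSG00000020899, chromosome 11, 68875996 to 68899303, minus strand) encodes the enzyme that adds a nitrogen from glutamine to formylglycinamide ribotide. Its level was 54.3, 54.4, 74.8 and 79.6 TPM in control and 46.4, 45.3, 57.5 and 67.2 TPM in 4A1 KO. Both genotypes were lower in batch A, and the groups overlapped although each pair was lower in 4A1 KO. Pfas counts fell by 21.9% (log2 fold change -0.36, SE 0.050, adjusted p = 3.89e-04). Ppat (ENSMUSG00000029246, chromosome 5, 77061096 to 77099436, minus strand) encodes the amidotransferase of the first committed step. Its level was 61.9, 78.3, 94.1 and 102.8 TPM in control and 51.9, 63.7, 74.9 and 81.6 TPM in 4A1 KO. Here too the groups overlapped and the pairs did not cross. Ppat counts fell by 18.4% (log2 fold change -0.29, SE 0.049, adjusted p = 0.00108).

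Atic (ENSMUSG00000026192, chromosome 1, 71596294 to 71619241, plus strand) encodes the enzyme that adds the last formyl group and closes the ring to IMP. Its level was 300.4, 320, 340 and 339 TPM in control and 239, 253, 274 and 291 TPM in 4A1 KO, so the genotypes did not overlap. The counts fell by 17.6% (log2 fold change -0.28, SE 0.046, adjusted p = 0.00101). Gart (ENSMUSG00000022962, chromosome 16, 91416576 to 91444536, minus strand) encodes a trifunctional enzyme of the early steps. Its level was 233, 264, 297 and 285 TPM in control and 202, 233, 236 and 258 TPM in 4A1 KO, and the groups overlapped. Gart counts fell by 12.6% (log2 fold change -0.19, SE 0.052, adjusted p = 0.0119), and without replicate 3 the call was lost (-0.13, adjusted p = 0.106).

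Impdh2 (ENSMUSG00000062867, chromosome 9, 108437485 to 108442783, plus strand) encodes the dehydrogenase that commits IMP to guanine nucleotides. Its level was 492, 476, 492 and 467 TPM in control and 456, 425, 436 and 439 TPM in 4A1 KO. In TPM the genotypes did not overlap, with 4A1 KO lower, which also held for 19.6% of all genes, whereas in CPM the groups overlapped. Impdh2 counts fell by 10.6% (log2 fold change -0.16, SE 0.046, adjusted p = 0.0163). The call was lost without replicate 2 (-0.14, adjusted p = 0.0935) and without replicate 3 (-0.14, adjusted p = 0.0870). In TPM 7 of the 10 genes fell by limma's test, all 6 purine genes and Umps, with adjusted p from 6.85e-04 for Umps to 0.0317 for Impdh2, against 26.6% of all genes. In TPM too the Gart call was lost without replicate 3 (adjusted p = 0.0803), and the Impdh2 call without replicate 2 (0.119) and without replicate 3 (0.135).

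TPM are per length, so levels can be set beside each other. In control the order of mean levels was Impdh2 (478 TPM), Paics (341), Atic (333), Gart (282), Cad (200.04), Ctps (129), Umps (98.3), Ppat (91.7), Pfas (69.6) and Dhodh (38.02). Neighbours kept this order in 8 of 8 libraries, apart from 2 places. Paics was above Atic in only 2 of the 8 libraries, both control. Umps was above Ppat in 4 of 4 control libraries and in none of the 4A1 KO libraries. Summed over the 10 genes, the level was 1802, 1953, 2102 and 2127 TPM in control and 1527, 1615, 1725 and 1841 TPM in 4A1 KO, lower in each pair but with overlap between replicate 4 of 4A1 KO and replicate 1 of control.

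Ratios of counts within a library do not depend on scaling. Of 45 ratios between the 10 genes, 17 did not overlap between the genotypes over 8 libraries. This is near the share over all pairs of genes, of which 34.4% did not overlap. The ratios share genes and are not independent. Umps was lower in 4A1 KO against each of the other 9 genes, and without overlap against 65.6% of all genes with counts in every library. Ctps was higher against each of the other 9 in all 4 pairs, without overlap against 6 of them and against 19.7% of all genes. The ratio of Umps to Ctps was 0.863, 0.975, 0.993 and 0.957 in control and 0.390, 0.471, 0.461 and 0.558 in 4A1 KO. The highest 4A1 KO ratio was below the lowest control ratio. Umps to Cad was between 0.211 and 0.251 in control and between 0.119 and 0.156 in 4A1 KO. The ratio of Paics to Ppat, neighbouring genes on opposite strands whose start sites lie 276 bases apart, was 2.09 to 2.81 in control and 1.89 to 2.29 in 4A1 KO, which overlapped (exact permutation p = 0.2, without pairing), although it was lower in 4A1 KO in all 4 pairs. Each ratio without overlap had an exact permutation p of 0.0286, the smallest that 4 against 4 libraries can give, and 0.0746 after adjustment over the 47 ratios computed, so none passed.

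**Figure D3:**
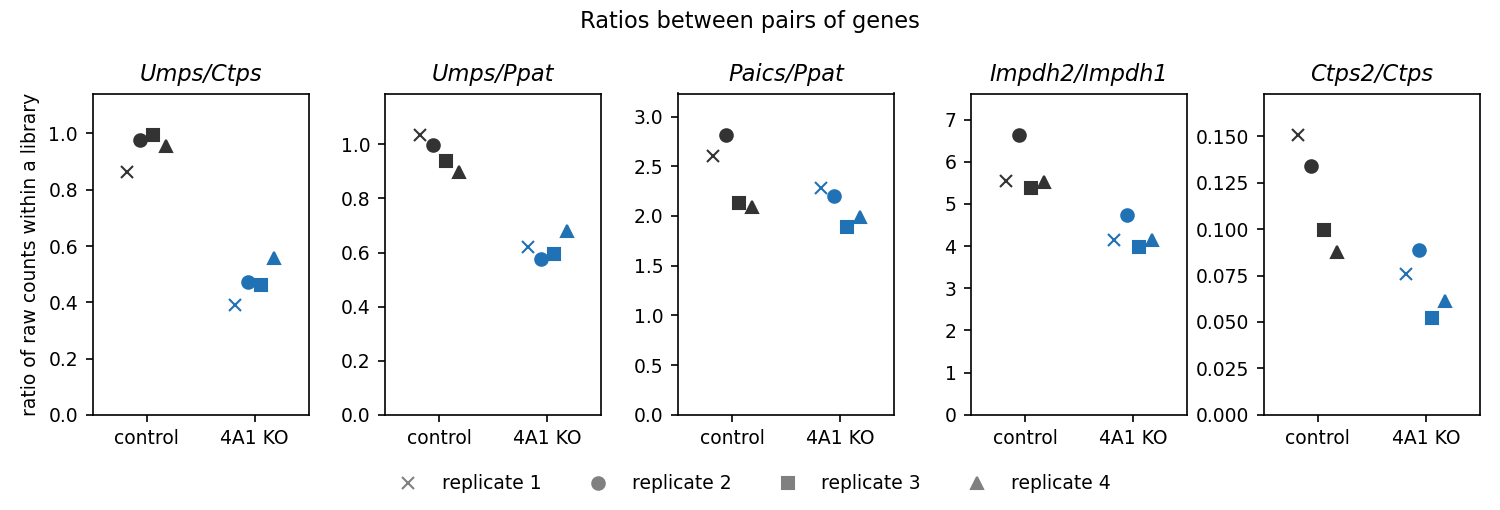
The vertical axis is the ratio of raw counts of the named genes within 1 library, from 0, with black symbols for control and blue for 4A1 KO, shaped by replicate number. Umps/Ctps, Umps/Ppat and Impdh2/Impdh1 separate the genotypes, while Paics/Ppat and Ctps2/Ctps overlap.

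Enzymes outside the 10 genes that work in the same pathways moved in both directions. Of 6 further de novo enzymes, 4 fell and 1 rose, with a median log2 fold change of -0.18. Ctps2, the second CTP synthase, fell by 0.61 on the log2 scale (SE 0.096, adjusted p = 7.76e-04), from 12.4 ± 0.84 to 8.44 ± 1.46 TPM (SD, n = 3), while Ctps did not. The ratio of Ctps2 to Ctps was 0.0877 to 0.150 in control and 0.0523 to 0.0886 in 4A1 KO, lower in all 4 pairs (exact permutation p = 0.0571, without pairing). Impdh1, the second IMP dehydrogenase, rose by 0.28 (SE 0.053, adjusted p = 0.00195), from 51.2 ± 5.75 to 65.9 ± 8.31 TPM, while Impdh2 fell. The ratio of Impdh2 to Impdh1 was 5.54, 6.62, 5.37 and 5.52 in control and 4.16, 4.74, 3.98 and 4.14 in 4A1 KO, without overlap (exact permutation p = 0.0286, adjusted 0.0746). Gmps, which makes GMP, fell by 0.22 (adjusted p = 0.00597). On the AMP branch Adssl1 fell by 0.78 (adjusted p = 0.0154) from a level of 1.68 TPM. Adsl, which acts both before IMP and on the AMP branch, fell by 0.13 in the counts (adjusted p = 0.0354), whereas its log2(TPM + 1) difference was 0.11 (adjusted p = 0.257), so its direction depended on the table. Adss had a log2 fold change of 0.10 (adjusted p = 0.0896). With all 8 libraries Adss was at 0.15 and passed as higher (adjusted p = 0.0189). Of the PRPP synthase genes Prps2 fell by 0.56 (SE 0.056, adjusted p = 6.29e-05), from 54.2 ± 1.59 to 36.9 ± 3.05 TPM, and Prps1 rose by 0.13 in the counts (adjusted p = 0.0475) but did not pass in TPM (adjusted p = 0.0783). The regulatory subunits Prpsap1 and Prpsap2 were at 0.14 and -0.01 in the counts and did not pass (adjusted p = 0.0522 for Prpsap1). In TPM Prpsap1 passed as higher (log2(TPM + 1) difference 0.17, adjusted p = 0.0280 by limma). Its counts also passed with all 8 libraries (adjusted p = 0.0393). Prps1l1 had no counts.

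Of 9 genes that make or limit the supply of deoxynucleotides for DNA, 8 fell and none rose, against 26.7% of all genes that fell, and 7 passed the fold threshold on the lower side, against 13.7%. Their median was -1.07. The 8 include Samhd1, which breaks deoxynucleotides down and fell by 0.57 (adjusted p = 1.24e-04), while Dctd, dCMP deaminase, was at 0.23 and did not pass (adjusted p = 0.0574). Samhd1 and Dctd were named after their values were seen. Tyms, thymidylate synthase, fell by 2.08 (adjusted p = 5.79e-05), Rrm1, the large ribonucleotide reductase subunit, by 1.44 and Dut, the dUTPase, by 1.07. Of 7 tested purine salvage genes of 8 listed, 5 fell and none rose (median -0.29). Pnp, the purine nucleoside phosphorylase, fell by 0.58, Hprt and Aprt, the phosphoribosyltransferases of purine bases, by 0.31 and 0.29, and Ada, adenosine deaminase, by 0.24. Pyrimidine salvage was mixed, with 2 of 8 tested genes lower, 3 higher and a median of 0.05. Dck, deoxycytidine kinase, fell by 1.45 (adjusted p = 1.93e-05). Tk1, thymidine kinase, fell by 1.84 in the counts, but its log2(TPM + 1) difference was -0.39 (adjusted p = 0.0742). Uprt and Uckl1, related to uracil and uridine salvage, rose by 0.59 and 0.38.

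Among 13 nucleotide kinases 3 fell and none rose (median -0.06). Ak3 fell by 0.46 and Nme3 by 0.98, while Nme1 was at -0.13 in the counts (adjusted p = 0.0504). In TPM Nme1 passed as lower (log2(TPM + 1) difference -0.16, adjusted p = 0.0161 by limma). Of 7 tested genes of one-carbon supply 2 rose and 2 fell (median -0.05). The mitochondrial enzymes Mthfd2 and Shmt2 rose by 0.41 (adjusted p = 1.71e-04) and 0.15 (adjusted p = 0.0156). The cytosolic Mthfd1, which makes the formyl folate that Gart and Atic use, fell by 0.23 (adjusted p = 0.00191), and Aldh1l2 fell by 1.19 from a level of 0.334 TPM. Of 8 tested breakdown genes of 14 listed, 5 fell and 1 rose (median -0.28). The nucleotidases Nt5c, Nt5c3b and Nt5c2 fell by 0.51, 0.41 and 0.34, and Ampd2, AMP deaminase, by 0.23. Among 5 tested nucleoside transporters Slc29a2 rose by 0.88 (adjusted p = 1.35e-04), Slc29a4 fell by 0.94 from 0.806 TPM, and Slc29a1 and Slc29a3 were at 0.11 each and did not pass. Among all genes 26.7% were lower and 26.3% higher by the same rule. No test of a list was made.

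**Figure D4:**
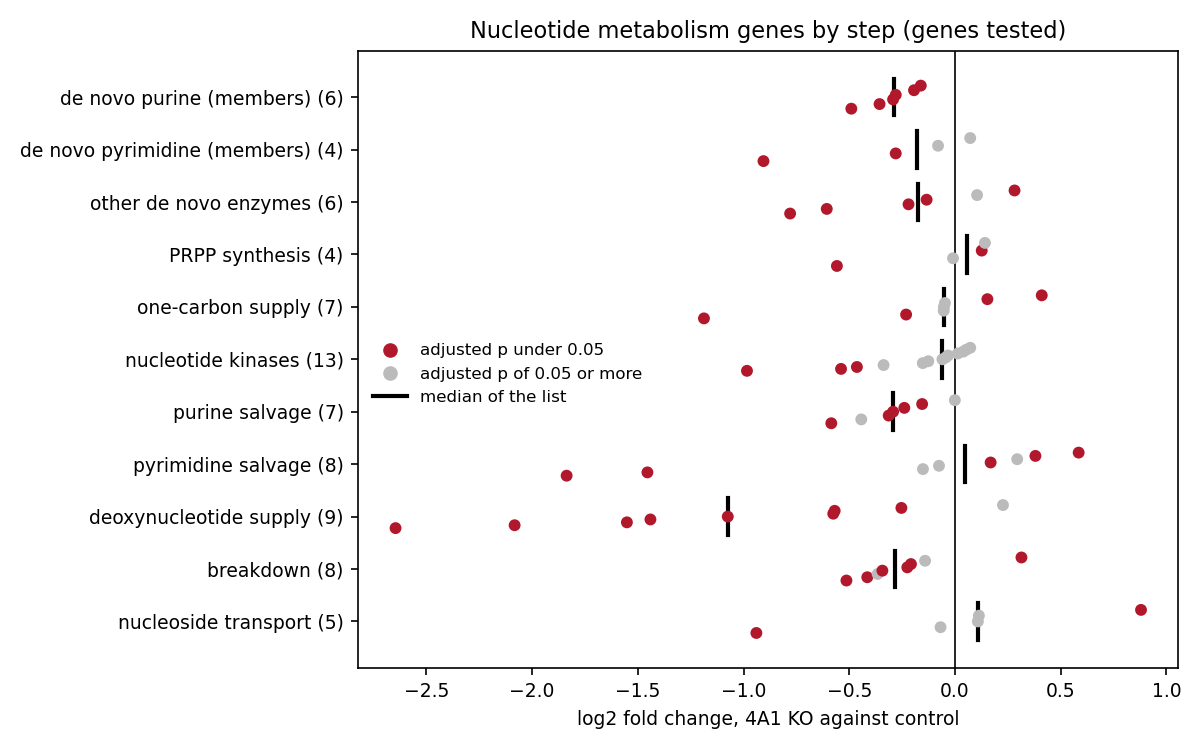
The horizontal axis is the log2 fold change of 4A1 KO against control (counts, replicates 2 to 4), and each row is a list with the number of genes tested in brackets. Each point is 1 gene, red where its adjusted p is under 0.05 and grey otherwise, and the black bar is the median of the list. Deoxynucleotide supply has its median at -1.07, and the 6 purine genes all lie left of 0.

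The levels also differed between the batches. In the 8 libraries 7 of the 10 genes were higher in batch B at an adjusted p under 0.05, as were 15.2% of all genes. Batch A holds the less viable replicate 1 of both genotypes, so batch and viability are partly mixed in these values. The batch difference was 0.43 on the log2 scale for Pfas, 0.42 for Ppat and 0.39 for Umps, and between 0.15 and 0.22 for Dhodh, Ctps, Cad and Gart. For Pfas, Ppat, Cad and Ctps this value was larger in size than that of the genotype difference, and for Umps, Dhodh and Gart it was smaller, a contrast that was not tested. Paics (0.13), Atic (0.10) and Impdh2 (-0.06) did not pass. Between the sexes only Paics differed, lower in males by a log2 difference of -0.19 (adjusted p = 0.0436). This is 1 of 10 genes, near the 6.88% of all genes that differed between the sexes. In CPM the male minus female difference of Paics was -0.33 in control and -0.22 in 4A1 KO in batch A, whose males are the less viable replicate 1, and -0.05 and -0.17 in batch B, so in batch A sex and viability cannot be told apart. The genotype by batch and genotype by sex terms had no p under 0.05 for any of the 10 genes before adjustment, the smallest being 0.230. Over all genes 1 had an adjusted p under 0.05 for the batch term and 0 for the sex term by edgeR, with 610 and 405 at an unadjusted p under 0.05. Fitted within batch A alone, which includes replicate 1, the median log2 fold change of the 10 genes was -0.20, and within batch B alone it was -0.29.

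Copies and neighbours of the genes bear on what was counted. Impdh2-ps, a processed pseudogene on chromosome 8, is 99.7% identical to the Impdh2 transcript over 1006 bases and was assigned 4899 to 7145 reads per library, so the counts of both are uncertain. It fell by 0.20 (adjusted p = 0.00714), and Impdh2 with Impdh2-ps summed fell by 0.17 (SE 0.045, adjusted p = 0.0108). The processed pseudogene of Ctps with the most reads, Gm16465, held 7 to 19. A stretch of Arhgap12 transcripts is 94.2% identical to Paics over 1967 bases. Arhgap12 held 571 to 857 reads, with a log2 fold change of 0.15 (adjusted p = 0.134), and Paics held 8295 to 19128. Ppat and Paics overlap by 298 bases, Gart and Son by 588 and Impdh2 and Ndufaf3 by 55, each pair on opposite strands in a stranded library. Pfas lies 658 kb from Eif4a1. The floxed allele was made in HM1 embryonic stem cells and then backcrossed, and the origin of the DNA linked to it was not examined. Within 5 Mb of Eif4a1 on chromosome 11, 121 genes were tested, of which 40 (33.1%) fell and 30 rose, with a median of -0.06, against 26.7% lower, 26.3% higher and a median of 0.01 over all genes. The part of this linkage in the Pfas difference was not tested.

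Across the 8 libraries the mean pattern of the 10 genes was followed most closely by Ubap2, Otud7b, Apoo, Zfp110 and Sec23b, out of 8307 genes of at least 10 CPM outside the lists. The root mean square difference of their centred log2 CPM from the mean pattern was 0.022, 0.030, 0.032, 0.033 and 0.035. The 10 genes themselves lay between 0.058 (Dhodh) and 0.34 (Umps) from it. Umps and Ctps (0.20) were the farthest.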

How the data were processed

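The authors trimmed the reads with Trim Galore 0.6.6, mapped them to GRCm39 with HISAT2 2.1.0 and counted reads per gene over merged isoforms with SeqMonk, on the opposing strand of a stranded library, and deposited the raw counts. The deposited TPM come from StringTie 2.1.1, run by the authors on the same alignments. How reads with several matches were counted is not given in the sources used here. Both tables were joined by gene identifier, and groups were taken from the sample labels.

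Counts were analysed with edgeR 4.0.16 in R 4.3.3 (filterByExpr, TMM, quasi-likelihood, batch and sex as covariates, Benjamini-Hochberg over 14218 genes, two-sided). For TPM, limma 3.58.1 was run on log2(TPM + 1) where the mean reached 1 TPM, and single values were compared with exact permutation tests over 8 libraries. In the fits, p-values rest on the spread between libraries of separate mice that remains after batch and sex. The main fit leaves 2 residual degrees of freedom, and edgeR and limma also draw on the spread of other genes. The exact permutation tests use neither batch nor sex. In the 6 libraries batch and sex equal the replicate number as a block. The labels give same-numbered libraries the same batch and sex, and their deviations from the genotype means correlated across genes (r = 0.594, 0.502 and 0.432 for replicates 2 to 4). Alternatives covered other scalings, DESeq2 1.42.0, other filters, no replicate block, all 8 libraries and leaving out each replicate. Fits within each batch and the sum of Impdh2 and Impdh2-ps were added after the data had been seen. Promoters came from RefSeq (GRCm38.p6), loci from GENCODE M39 and near copies from blastn 2.17.0. The code was tested on simulated data.

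The text names all 10 genes, every gene of the further de novo and PRPP lists, the 4 smallest adjusted p of each other pathway list, the 5 genes most like the 10, Eif4a1, and copies or overlapping genes. Some genes that this rule selects are not reported here. Postn, Cd3g, Mpo and S100a8 are named as markers at 0. The genes and lists were chosen with earlier results of these data known.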

Additional observations from a re-analysis of the deposited data

Results flagged for a closer look

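One of 40 groups of 4 libraries held a value far from the rest. Impdh2 in the 4A1 KO libraries was at 346, 349 and 352 CPM in replicates 2 to 4 and at 382 CPM in replicate 1, so that the gap to the nearest library was 0.835 of the whole range. Chance alone would mark 2 of 40 such groups. Replicate 1 is not part of the main comparison.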

How the results depend on the processing

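Of 141 alternative count fits of single genes among the 10, 121 kept their direction and their side of the threshold, 18 lost the call, 2 gained it and 0 reversed. Another scaling moved the median of all genes to 0.03 at most and changed no call of these genes. Causes were not tested. Without the replicate block, 3 of the 10 genes were lower in place of 8, and the calls lost were Dhodh (-0.28), Ppat (-0.30), Gart (-0.19), Pfas (-0.36) and Impdh2 (-0.16), with the TPM differences of Ppat (-0.32), Pfas (-0.29) and Impdh2 (-0.14). A test against a log2 fold change of 0.5 left 1 of the 10, with Dhodh (-0.28), Ppat (-0.29), Gart (-0.19), Pfas (-0.36), Paics (-0.49), Atic (-0.28) and Impdh2 (-0.16) not passing by its construction. With all 8 libraries Cad passed at -0.10 with batch and sex and at -0.10 with the replicate block, and in TPM Cad (-0.12) and Dhodh (-0.29) passed. With no filter on low TPM, Gart (-0.22) and Impdh2 (-0.14) did not pass. Within batch A Dhodh (-0.18) and Impdh2 (-0.14) did not pass and the median was -0.20, and within batch B, which is the fit without replicate 2 and is counted once above, Impdh2 (-0.14) did not pass. In the fits that left out a replicate, the share of all genes called was not computed. Without replicate 3, Dhodh, Gart and Impdh2 were lost, which left 5 lower genes. Leaving out each replicate in turn gave 5 to 8 lower genes and 1 to 2 past the fold threshold. Log2 fold changes then ranged from -0.32 to -0.24 for Dhodh, -0.24 to -0.13 for Gart and -0.20 to -0.14 for Impdh2, and TPM differences from -0.52 to -0.17 for Dhodh, -0.25 to -0.16 for Gart and -0.17 to -0.13 for Impdh2. Of the other pathway genes 31 were lower and 9 higher. With the test against 0.5 these were 8 and 1. The higher genes numbered 14 with upper quartile scaling, 4 without the replicate block, 14 with all 8 libraries in either fit, 5 within batch B and 5 to 8 on leaving out a replicate (5 without replicate 2). With 3 libraries per genotype an exact permutation test cannot go below 0.1.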
